A study of Homo sapiens with 6 samples.

Results

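The BCL2 family sets whether a cell keeps its outer mitochondrial membrane intact or commits to apoptosis. Of 17100 genes in the count table of the breast adenocarcinoma line MDA-MB-231, 10 members of the family were selected by their symbols: BCL2, BCL2L1, MCL1, BCL2A1, BAX, BAK1, BBC3, PMAIP1, BID and BCL2L11. The RNA was sequenced from 3 vehicle libraries and from 3 libraries of cells given 1 µM guadecitabine (SGI-110) for 96 h, followed by 24 h without drug before harvest. Guadecitabine is a prodrug of decitabine, a cytosine analogue that traps DNA methyltransferases and lowers DNA methylation. All 6 libraries came from the same established line, and the study's methods describe the 3 replicates of each group as separate experiments.

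The anti-apoptotic proteins BCL2, BCL-XL (encoded by BCL2L1), MCL1 and BFL1 (encoded by BCL2A1) hold the pore-forming effectors BAX and BAK (encoded by BAK1) in check. BH3-only proteins, which share a single short helix with the rest of the family, bind the anti-apoptotic proteins and in part activate the effectors directly. Among them PUMA (encoded by BBC3), BIM (encoded by BCL2L11) and the cleaved form of BID bind anti-apoptotic proteins broadly, whereas NOXA (encoded by PMAIP1) prefers MCL1 and BFL1. Once BAX and BAK open the membrane, cytochrome c leaves the mitochondria and caspases are activated. Solid tumors, breast tumors included, often depend on MCL1 or BCL-XL for survival.

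Because guadecitabine lowers DNA methylation, which lies mostly on cytosines followed by guanine (CpG), the sequence just upstream of each deposited transcript start was read. The assembly was GRCh37, also called hg19. In the 250 bases before the start, PMAIP1 had 35 CpG, BCL2L11 34, BAX 24, MCL1 22, BCL2 21 and BCL2L1 14. The starts of BID, BAK1 and BBC3 had only 4, 3 and 3 CpG, and that of BCL2A1 had none, as in 2.05% of all genes. Annotated exons overlap the 100 bases next to the start in BCL2L1, BCL2, BAX and BID, so parts of these windows are annotated as transcribed. The median over all 17100 genes was 17 CpG, with quartiles of 7 and 25, and 91.8% of genes had fewer CpG in this window than PMAIP1. The 100 bases upstream of 3 members are printed 5′ to 3′ on the strand of the gene with each CpG in capitals, to show the CpG-rich start of PMAIP1, which rose after guadecitabine, that of MCL1, whose level did not pass the test, and the start of BCL2A1, which has no CpG. They lie at chr18:57567092-57567191 on the plus strand for PMAIP1, at chr1:150552215-150552314 on the minus strand for MCL1 and at chr15:80263644-80263743 on the minus strand for BCL2A1.
PMAIP1: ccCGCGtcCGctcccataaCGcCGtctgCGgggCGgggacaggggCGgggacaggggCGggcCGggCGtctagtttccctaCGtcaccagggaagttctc
MCL1: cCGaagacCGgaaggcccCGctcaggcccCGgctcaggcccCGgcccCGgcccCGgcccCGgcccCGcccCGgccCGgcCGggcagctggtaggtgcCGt
BCL2A1: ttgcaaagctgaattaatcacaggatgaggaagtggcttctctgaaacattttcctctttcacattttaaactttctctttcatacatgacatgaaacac
These stretches held 12 CpG in PMAIP1, 13 in MCL1 and 0 in BCL2A1. They describe the sequence only, since methylation was not analysed here, and other annotated starts of the members were not examined.

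The 3 vehicle libraries held between 17602570 and 22277442 counts each and the guadecitabine libraries between 8792127, in guadecitabine 2, and 21410849. Vehicle 3 stood apart from the other libraries, with 20 transcripts at 0 counts against 1593 to 2517 in the others. The receptor genes ESR1 and PGR, which this line lacks, had 67 and 43 counts in vehicle 3 and at most 1 in any other library, and ERBB2 (HER2), also known to be low in this line, had 552 to 1974 counts. Of 6 genes that mark the line, all had at least 910 counts in every library, while 5 of the 6 white blood cell genes in the table and 3 of the 5 fibroblast and endothelial genes had their highest raw count in vehicle 3. The summed normalized counts were 173 to 291 in vehicle and 201 to 224 after guadecitabine for the white blood cell genes, and 866 to 1175 and 2234 to 2962 for the fibroblast and endothelial genes, with DCN and CDH5 at 0 counts in vehicle 1 and 2. In the latter list COL1A1 rose (log2 fold change 3.38, adjusted p = 3.34e-05 by edgeR) and COL1A2 fell (log2 fold change -0.61, adjusted p = 0.0106 by edgeR). The part of these in the values of the members was not tested. Transcripts with at least 60% GC deviated from the mean of all libraries by a median of -0.27 (log2) in guadecitabine 1 and 0.19 in guadecitabine 2, against -0.05 to 0.14 in the vehicle libraries. Values that rest on vehicle 3 or guadecitabine 2 are given with and without them.

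Counts were scaled by edgeR's TMM factors to the mean library total (normalized counts), and 13322 genes with enough counts, all 10 members among them, entered the quasi-likelihood test of edgeR. At a Benjamini-Hochberg adjusted p of 0.05 over these genes, PMAIP1 and BID rose after guadecitabine and BCL2 and BCL2L1 fell, whereas the other 6 members did not pass. This share of members called, 4 of 10, stood beside 37.7% of all genes tested (19.3% higher and 18.4% lower) and is not a result about the family. Leaving out guadecitabine 3 lowered the counts over all genes from 2576 to 1706 higher and from 2446 to 1629 lower, with 2 members higher and 1 lower. Without vehicle 1 there were also 2 members higher and 1 lower, and without vehicle 3 there were 3 higher and 3 lower. The groups did not overlap in 6 members, 4 higher and 2 lower, compared with 51.6% of all genes. The median log2 fold change was 0.13 over the members and 0.02 over all genes tested. In bulk libraries like these, fewer cells with a transcript and less of it per cell cannot be told apart. The plot of normalized counts by library shows each member in every library.

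**Figure D1:**
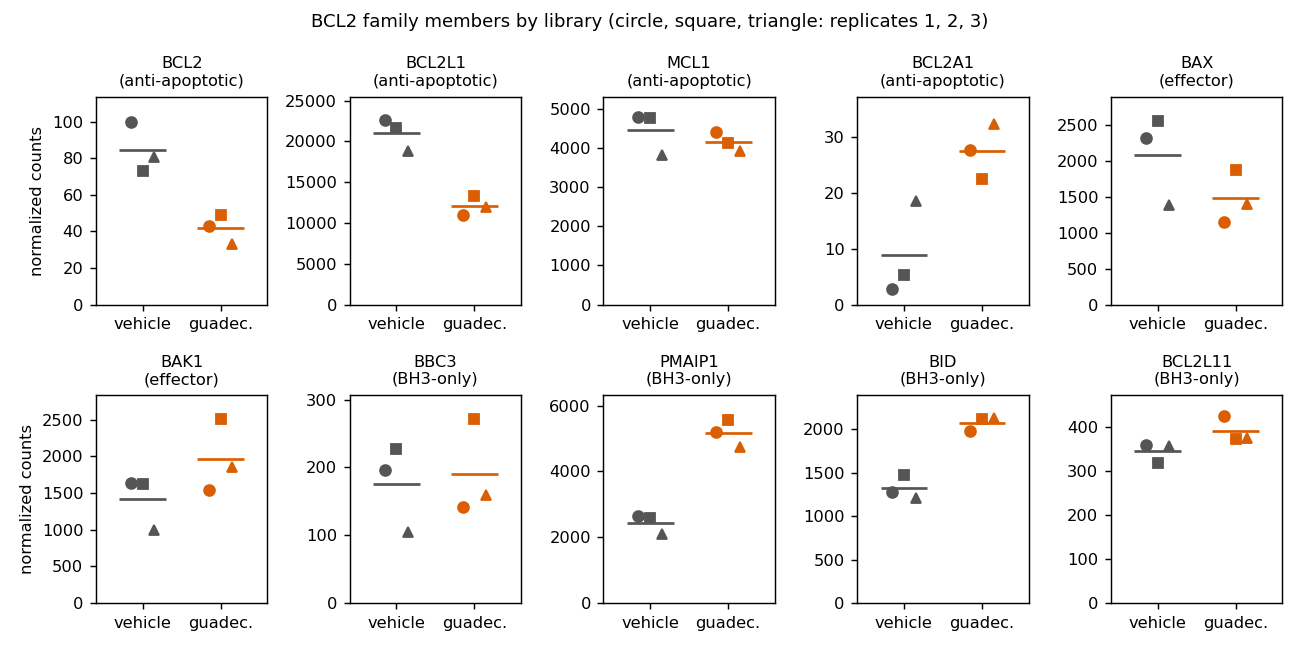
Normalized counts (y axis, each panel from 0) of the 10 BCL2 family members in the 3 vehicle (grey) and 3 guadecitabine (orange) libraries; circles, squares and triangles are replicates 1, 2 and 3 and lines are group means. The groups are apart in BCL2, BCL2L1, BCL2A1, PMAIP1, BID and BCL2L11, and vehicle 3 is the lowest vehicle library in BAX, BAK1 and BBC3.

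Among the anti-apoptotic members, the most abundant and the scarce BCL2 fell, MCL1 did not pass the test, and BCL2A1 was higher without passing it. BCL2L1, whose long form protects cells and whose short splice form promotes death, lies on chromosome 20 from 30252261 to 30310656 on the minus strand. It had 22579, 21590 and 18788 normalized counts in vehicle 1, 2 and 3 and 10976, 13324 and 11920 in guadecitabine 1, 2 and 3. Every guadecitabine library was thus below every vehicle library. The mean went from 20986 ± 1967 to 12073 ± 1182 (SD, n = 3 each), 1.74-fold lower. The log2 fold change was -0.80 (standard error, SE, 0.112, adjusted p = 0.0006 by edgeR). Both splice forms were counted as 1 gene, and 945 bases of its exons overlap those of the long noncoding RNA ABALON on the opposite strand, whose reads cannot be told apart where strand is not used.

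BCL2, the founding member of the family, lies on chromosome 18 from 60790579 to 60986613 on the minus strand. Its raw counts were 105, 69 and 105 in the vehicle libraries and 53, 24 and 33 in the guadecitabine libraries. After normalization these were 99.97, 72.84 and 80.71 against 42.89, 48.82 and 33.3, so the groups did not overlap. The mean fell 2.03-fold, from 84.5 ± 14.0 to 41.7 ± 7.83 (SD, n = 3 each), with a log2 fold change of -1.03 (SE 0.288, adjusted p = 0.0203 by edgeR). The call rested on single libraries, since it was lost without vehicle 1 (-0.89, adjusted p = 0.101 by edgeR) and without guadecitabine 3 (-0.90, adjusted p = 0.0789 by edgeR).

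MCL1, a short-lived protein that many cells need to survive, lies on chromosome 1 from 150547027 to 150552214 on the minus strand. It had 4789, 4778 and 3829 normalized counts in the vehicle libraries and 4423, 4146 and 3938 in the guadecitabine libraries. Vehicle 3 was the lowest of the 6 and the groups overlapped. The log2 fold change was -0.10 (SE 0.116, adjusted p = 0.529 by edgeR). Without vehicle 3 the groups did not overlap, and it was -0.20 and did not pass (adjusted p = 0.172 by edgeR). This was the lowest value under the 15 alternatives.

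BCL2A1, a target of NF-κB signalling in blood cells, lies on chromosome 15 from 80253232 to 80263643 on the minus strand. Its raw counts were 3, 5 and 24 in the vehicle libraries and 34, 11 and 32 in the guadecitabine libraries. Normalized, the lowest guadecitabine library, with 22.4 counts, lay just above vehicle 3, with 18.4, and well above the other vehicle libraries, with 2.86 and 5.28. The log2 fold change of 1.59 had an SE of 0.70 and did not pass (adjusted p = 0.105 by edgeR, 0.0495 before adjustment). Without vehicle 3 it was 2.76 and passed (adjusted p = 0.000812 by edgeR). BCL2A1 had 25.5 raw counts per kb in vehicle 3. The median there was 7.10 (quartiles 4.37 and 10.9) over 533 genes near silent in the other vehicle libraries and counted after guadecitabine. Those genes had at most 1 count in each of vehicle 1 and 2, so BCL2A1, with 3 and 5, was not among them. In addition, 36.4% of its transcript has a copy at 95% identity or more, the longest of 285 bases at ST20 on the same chromosome, so its reads are uncertain.

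The effectors did not pass the test, and their values moved with the libraries that stand apart. BAX, which moves from the cytosol to mitochondria when activated, lies on chromosome 19 from 49458117 to 49465055 on the plus strand. It had 2327, 2566 and 1384 normalized counts in the vehicle libraries and 1152, 1882 and 1409 in the guadecitabine libraries. Vehicle 3 lay among the guadecitabine libraries. The log2 fold change was -0.51 (SE 0.241, adjusted p = 0.130 by edgeR). Without vehicle 3 it was -0.73 and passed (adjusted p = 0.00839 by edgeR), and without both vehicle 3 and guadecitabine 2 it was -0.93 (adjusted p = 3.92e-06 by edgeR). Without guadecitabine 1, where BAX was lowest and GC-rich transcripts deviated most, it was -0.35 and did not pass (adjusted p = 0.322 by edgeR).

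BAK1, whose protein sits in the mitochondrial membrane at rest, lies on chromosome 6 from 33540323 to 33548070 on the minus strand. It had 1642, 1622 and 988.5 normalized counts in the vehicle libraries against 1544, 2504 and 1852 in the guadecitabine libraries, and the groups overlapped. Its log2 fold change of 0.47 (SE 0.225) did not pass (adjusted p = 0.132 by edgeR). It passed with offsets for GC content (0.56, adjusted p = 0.0224 by edgeR) and was 0.26 without vehicle 3, 0.26 without guadecitabine 2 and 0.06 without both (adjusted p = 0.267, 0.383 and 0.722 by edgeR). Its count is uncertain, because 98.0% of the transcript has a copy and 2126 bases match the pseudogene BAK1P1 on chromosome 20 from 31276732 to 31278856 at 98.7% identity.

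Of the 4 BH3-only members, PMAIP1 and BID rose and BBC3 and BCL2L11 did not pass. PMAIP1 lies on chromosome 18 from 57567192 to 57571538 on the plus strand, and its product NOXA marks MCL1 for degradation. It had 2642, 2586 and 2102 normalized counts in the vehicle libraries and 5200, 5576 and 4757 in the guadecitabine libraries. The lowest guadecitabine library was above the highest vehicle library by a wide margin. The mean went from 2444 ± 297 to 5178 ± 410 (SD, n = 3 each), 2.12-fold higher. The log2 fold change was 1.08 (SE 0.121, adjusted p = 0.000163 by edgeR), and 85.9% of the genes tested had a smaller absolute change.

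BID, which links death receptors to the mitochondria once caspase-8 has cleaved it, lies on chromosome 22 from 18216906 to 18257431 on the minus strand. It had 1279, 1479 and 1209 normalized counts in the vehicle libraries and 1977, 2118 and 2132 in the guadecitabine libraries. All guadecitabine values were again above all vehicle values. The mean rose 1.57-fold, from 1322 ± 140 to 2076 ± 85.7 (SD, n = 3 each), with a log2 fold change of 0.65 (SE 0.110, adjusted p = 0.0018 by edgeR).

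BCL2L11 lies on chromosome 2 from 111878491 to 111926022 on the plus strand and encodes BIM in several splice forms. It had 358.9, 318.8 and 355.9 normalized counts in the vehicle libraries and 424.1, 372.3 and 374.4 in the guadecitabine libraries. The groups did not overlap, but the gap was small, and the log2 fold change of 0.18 (SE 0.116) did not pass (adjusted p = 0.251 by edgeR). Of its exons, 727 bases overlap MIR4435-2HG on the opposite strand.

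BBC3, named after its BCL2-binding product, lies on chromosome 19 from 47724079 to 47736023 on the minus strand. It had 196.1, 227.0 and 105.3 normalized counts in the vehicle libraries and 140.8, 270.6 and 159.4 in the guadecitabine libraries, so that both the spread within the groups and their overlap were large. Its log2 fold change was 0.09 (SE 0.319, adjusted p = 0.855 by edgeR). The direction turned without vehicle 3 (-0.20, adjusted p = 0.566 by edgeR) or without guadecitabine 2 (-0.22, adjusted p = 0.600 by edgeR), and without both it was -0.49 (adjusted p = 0.0347 by edgeR). Without guadecitabine 1 it was 0.27 (adjusted p = 0.58 by edgeR).

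The transcripts of BBC3 and the effectors were the richest in GC of the 10 members. They had 69.7% GC in BBC3, 60.8% in BAX and 58.6% in BAK1, against 36.7% in PMAIP1, 40.4% in BCL2A1 and between 44.4% and 56.6% in the other members. In each of the 3 genes vehicle 3 was the lowest vehicle library, and guadecitabine 2 was the highest and guadecitabine 1 the lowest guadecitabine library. BCL2L1 had the same order, and vehicle 3 was also the lowest vehicle library in MCL1, PMAIP1 and BID. The GC-rich transcripts of all genes had the same order, with median deviations (log2) of -0.05 in vehicle 3, 0.19 in guadecitabine 2 and -0.27 in guadecitabine 1. With offsets for GC content the log2 fold changes were 0.24 for BBC3 and -0.40 for BAX, and neither passed (adjusted p = 0.372 and 0.0845 by edgeR). For a single member, the two-sided exact permutation test on normalized counts cannot give a p below 0.1 with 3 against 3 libraries. It gave 0.1 for each of the 6 members whose groups did not overlap, and between 0.3 and 0.9 for the others.

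**Figure D2:**
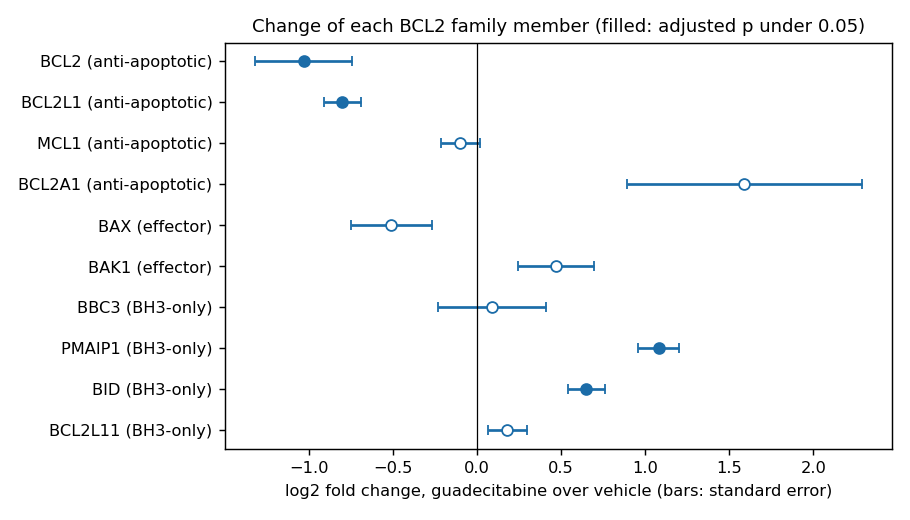
Log2 fold change, guadecitabine over vehicle (x axis), with its standard error for each of the 10 members; filled points passed an adjusted p of 0.05 (edgeR). BCL2 and BCL2L1 lie at -1.03 and -0.80, PMAIP1 and BID at 1.08 and 0.65, and BCL2A1 has the widest standard error, 0.70.

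To compare levels between genes, normalized counts were divided by each gene's counted exon length (reads per kb). In the vehicle libraries BCL2L1 was the most abundant member, with 8855 ± 830 reads per kb (SD, n = 3), followed by BAX with 2714 ± 811, PMAIP1 with 1262 ± 153 and MCL1 with 1164 ± 144. BAK1 and BID had 646 and 626 reads per kb, BBC3 had 114, BCL2L11 had 67.3, and BCL2 and BCL2A1 had only 13.0 and 9.40. The ranges of neighbours overlapped between PMAIP1 and MCL1, between BAK1 and BID, between BBC3 and BCL2L11 and between BCL2 and BCL2A1, although PMAIP1 was above MCL1 within each vehicle library. After guadecitabine BCL2L1 was still at the top, with 5094 ± 499 reads per kb (SD, n = 3), and PMAIP1, with 2674 ± 212, stood above BAX, with 1920 ± 480, by the means and narrowly by the ranges (lowest 2457 and highest 2441). MCL1, BID and BAK1 followed with 1087, 983 and 897 reads per kb, where the range of BAK1 overlapped those of both others. BBC3 had 124, BCL2L11 76.2, BCL2A1 29.1 and BCL2 6.42 reads per kb.

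BCL2L1 made up most of the summed anti-apoptotic level in every library. Its share of the summed reads per kb was 88.3%, 87.8% and 88.5% in the vehicle libraries and 79.6%, 83.5% and 82.5% in the guadecitabine libraries. The share of MCL1 was 11.1% to 12.0% in vehicle and 16.1% to 19.8% after guadecitabine. BCL2 and BCL2A1 together never reached 1% of the sum. BCL2 made up 0.13% on average in vehicle and 0.103% after guadecitabine, whereas BCL2A1 made up 0.10% and 0.472%.

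On the pro-apoptotic side, BAX held 50.9%, 52.7% and 44.4% of the summed reads per kb of the 6 members in the vehicle libraries and 24.9%, 31.6% and 28.9% in the guadecitabine libraries. PMAIP1 took 23.0%, 21.2% and 26.9% in vehicle and 44.8%, 37.3% and 38.9% after guadecitabine. It thus became the most abundant of these 6 members in each treated library. BAD, a pro-apoptotic gene of the family outside the members, had means of 3221 reads per kb in vehicle and 2784 after guadecitabine. Its range after guadecitabine, 1968 to 3749, overlapped that of PMAIP1, 2457 to 2880. BID stood at 10.2% to 14.2% and 13.0% to 16.0%, and BAK1 at 11.2% to 12.6% and 11.7% to 14.8%, with overlap in both. BBC3 and BCL2L11 stayed at or under 2.33%. Within the BH3-only members alone, PMAIP1 took 59.5% to 63.0% in vehicle and 67.4% to 70.8% after guadecitabine.

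Ratios and shares within a library do not depend on how libraries are scaled. Differences between libraries by the GC content of transcripts were not removed from them, and the genes compared differ in GC. The summed reads per kb of the 6 pro-apoptotic members over those of the 4 anti-apoptotic members were 0.550, 0.609 and 0.451 in the vehicle libraries and 1.03, 1.15 and 1.04 in the guadecitabine libraries. These sums leave out other family genes, among them the pro-apoptotic BAD and BOK and the anti-apoptotic BCL2L2, named after their values were seen. They had 3221, 1121 and 174 reads per kb in vehicle and 2784, 1087 and 182 after guadecitabine, and none passed the test. The level of this ratio thus rests on the genes chosen. The ratio of PMAIP1 to MCL1, the anti-apoptotic protein that NOXA binds, was 1.09, 1.07 and 1.09 in vehicle and 2.33, 2.66 and 2.39 after guadecitabine. That of BCL2L1 to MCL1 was 7.63, 7.31 and 7.94 and then 4.02, 5.20 and 4.90. Between the effectors, BAX over BAK1 was 4.03, 4.50 and 3.98 in vehicle and 2.12, 2.14 and 2.16 after guadecitabine. None of these ratios overlapped between the groups, and that of the effectors was nearly the same in all treated libraries although both genes varied among them. They are ratios of RNA, were given no test, and for BAK1 may include reads of its pseudogene.

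**Figure D3:**
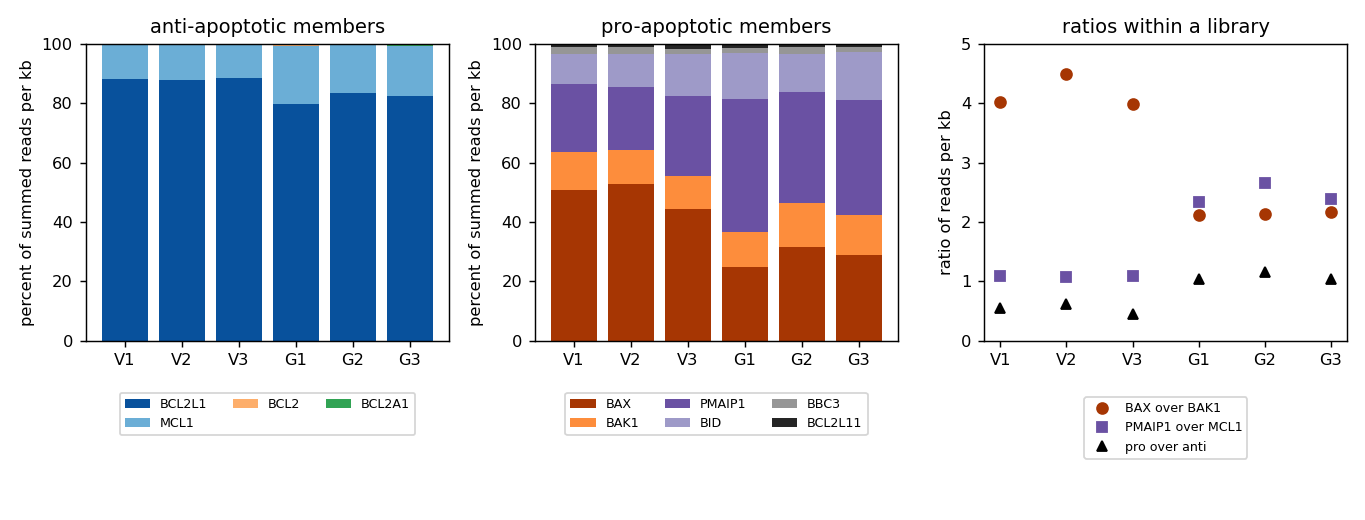
Left and middle, percent of the summed reads per kb of the 4 anti-apoptotic and the 6 pro-apoptotic members in vehicle (V1 to V3) and guadecitabine (G1 to G3) libraries; right, ratios of reads per kb within each library. The shares of MCL1 and PMAIP1 are larger and those of BCL2L1 and BAX smaller in all 3 guadecitabine libraries. The ratio of these 6 pro-apoptotic over these 4 anti-apoptotic members goes from 0.451 to 0.609 in vehicle up to 1.03 to 1.15. Other family genes are not in these sums.

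The rest of the BCL2 family was described by a list of 13 genes, of which 10 had enough counts to be tested. BIK and BCL2L13 rose, BNIP3 and BNIP3L fell, and 6 did not pass. This was 40.0% called, near the 37.7% of all genes tested, and the median log2 fold change was 0.01. BIK, a BH3-only protein of the endoplasmic reticulum, had 40.9, 32.7 and 30.8 normalized counts in the vehicle libraries and 157.0, 284.8 and 214.9 in the guadecitabine libraries. The log2 fold change was 2.63 (SE 0.264, adjusted p = 8.57e-05 by edgeR). BCL2L13, a mitochondrial protein that also serves in mitophagy, was at 0.45 on the log2 scale (adjusted p = 0.0131 by edgeR), which did not pass without vehicle 2 or without guadecitabine 3 (1 gene higher in each case). The mitophagy receptors BNIP3 and BNIP3L, known as hypoxia-induced genes, had log2 fold changes of -1.05 and -0.73 (adjusted p = 9.07e-05 and 0.000862 by edgeR). BNIP3 had 5950 to 6732 normalized counts in vehicle and 2807 to 3340 after guadecitabine.

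Of the mitochondrial pathway and the caspases, 13 genes were tested, of which 5 rose, none fell and 8 did not pass, with a median log2 fold change of 0.17. The share called was 38.5%, all of it higher, beside 37.7% of all genes tested, of which 19.3% were higher and 18.4% lower. CASP8, which cleaves BID, went from 525.8 to 593.3 normalized counts in vehicle up to 723.5 to 933.9 (log2 fold change 0.59, SE 0.123, adjusted p = 0.00537 by edgeR). CYCS, which encodes cytochrome c, had 2653, 2280 and 1829 normalized counts in the vehicle libraries and 3023, 3995 and 3273 in the guadecitabine libraries, and its log2 fold change was 0.60 (SE 0.157, adjusted p = 0.0152 by edgeR). The mitochondrial protease gene HTRA2 was at 0.54 on the log2 scale, CASP9, the initiator caspase that cytochrome c sets off, at 0.40, and DIABLO, whose product blocks inhibitor of apoptosis proteins, at 0.33 (adjusted p = 0.00902, 0.0292 and 0.0308 by edgeR). The count of 5 became 3 without vehicle 1 or vehicle 2 and 2 without guadecitabine 3, where CYCS did not pass (adjusted p = 0.0564 by edgeR). CASP9 did not pass without vehicle 1, 2 or 3 or without guadecitabine 2 or 3, and DIABLO did not pass without vehicle 1 or 2 or without guadecitabine 3. CASP6, named after its values were seen, had an unadjusted p under 0.05 in the edgeR fit, at -0.41 on the log2 scale (adjusted p = 0.061 by edgeR), and passed as lower without vehicle 3, which made 1 gene of the list lower. The Wald test of DESeq2 called 0 of the 13 lower.

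Of 7 inhibitor of apoptosis proteins, 6 were tested, 2 rose and 2 fell, beside 19.3% of all genes tested that were higher and 18.4% that were lower. BIRC3 (cIAP2), an NF-κB target, had 881, 1067 and 763 normalized counts in the vehicle libraries and 7318, 3932 and 4126 in the guadecitabine libraries. Its log2 fold change was 2.51 (SE 0.248, adjusted p = 7.92e-05 by edgeR). BIRC2 (cIAP1) was at 0.48 (adjusted p = 0.0451 by edgeR), but did not pass without vehicle 1, 2 or 3 or without guadecitabine 1 or 3, each of which left 1 gene of the list higher. BIRC5 (survivin), which also acts in mitosis, fell by 0.74 on the log2 scale (adjusted p = 0.00152 by edgeR). NAIP, an inflammasome receptor that carries the same domain, fell by 1.94 (adjusted p = 0.00894 by edgeR), from 43, 42 and 80 raw counts to 21, 5 and 10, and did not pass without guadecitabine 3 (adjusted p = 0.0526 by edgeR, 1 gene lower).

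Genes whose proteins degrade or bind the members, and factors known to act on their promoters, moved in both directions. In the first group 10 of 11 genes were tested, with 2 higher, 1 lower (30.0% called, against 37.7% of all genes tested) and a median log2 fold change of 0.14. BAG1, a chaperone partner that binds BCL2, was at -0.73 (log2, adjusted p = 0.00129 by edgeR). HUWE1, a ubiquitin ligase of MCL1, and DYNLL1, which tethers BIM, were at 0.43 and 0.29 (adjusted p = 0.0157 and 0.039 by edgeR), and neither passed without vehicle 1 or without vehicle 2 (0 genes higher), while without guadecitabine 2 or 3 DYNLL1 did not pass (1 gene higher). All 13 transcription factor genes were tested, with 5 higher and 1 lower (46.2% called) and a median of -0.09. TP73, a factor that can activate BH3-only genes, fell from 238.0, 227.0 and 187.6 normalized counts to 60.7, 57.0 and 50.5 (log2 fold change -1.95, SE 0.183, adjusted p = 6.04e-05 by edgeR). NFKB1, STAT3 and RELA, which drive survival genes such as BCL2A1 and BCL2L1, had log2 fold changes of 0.77, 0.39 and 0.36 (adjusted p = 0.000326, 0.012 and 0.0237 by edgeR). FOXO3, which can activate BCL2L11 and BBC3, was at 0.45 (log2, adjusted p = 0.0286 by edgeR). The count of 5 higher factors became 2 without vehicle 1, 1 without vehicle 2, 3 without vehicle 3, 3 without guadecitabine 2 and 1 without guadecitabine 3. RELA did not pass without any of these libraries and STAT3 did not pass without vehicle 2 or guadecitabine 3, nor FOXO3 without vehicle 1, vehicle 2, guadecitabine 1 or guadecitabine 3. Without guadecitabine 1 there were 2 factors lower.

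**Figure D4:**
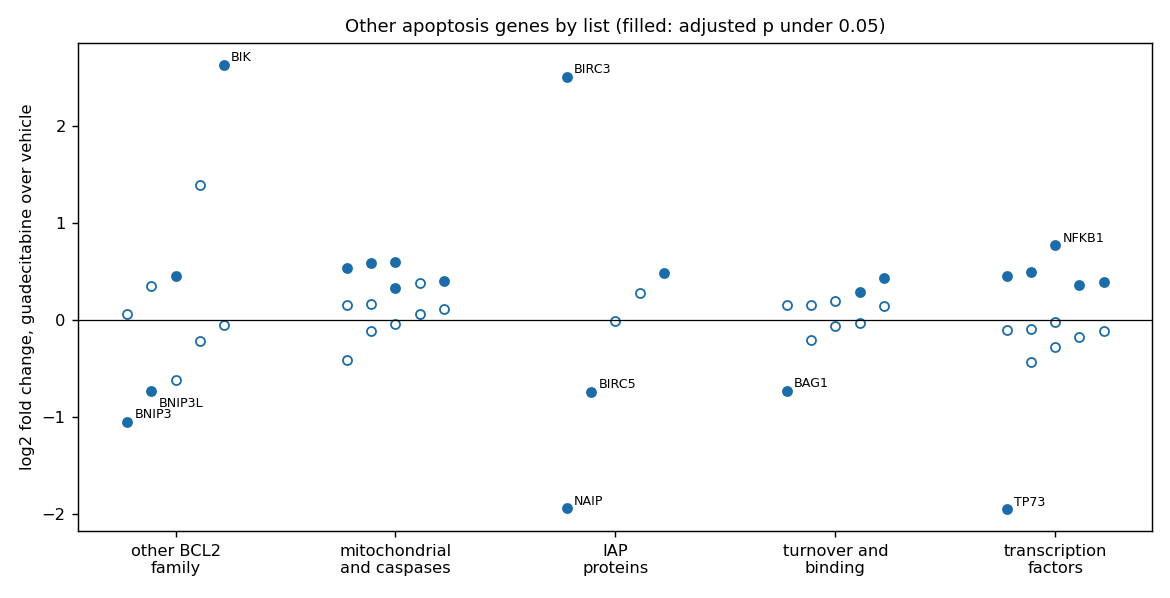
Log2 fold change, guadecitabine over vehicle (y axis), of the tested genes of 5 lists (x axis) around the BCL2 family; filled points passed an adjusted p of 0.05 (edgeR), and called genes beyond 0.7 in either direction are named. In the mitochondrial and caspase list 5 of 13 genes are filled, all above 0, and BIK and BIRC3 lie highest at 2.63 and 2.51. Of all genes tested, 37.7% were called, 19.3% higher and 18.4% lower.

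**Figure D5:**
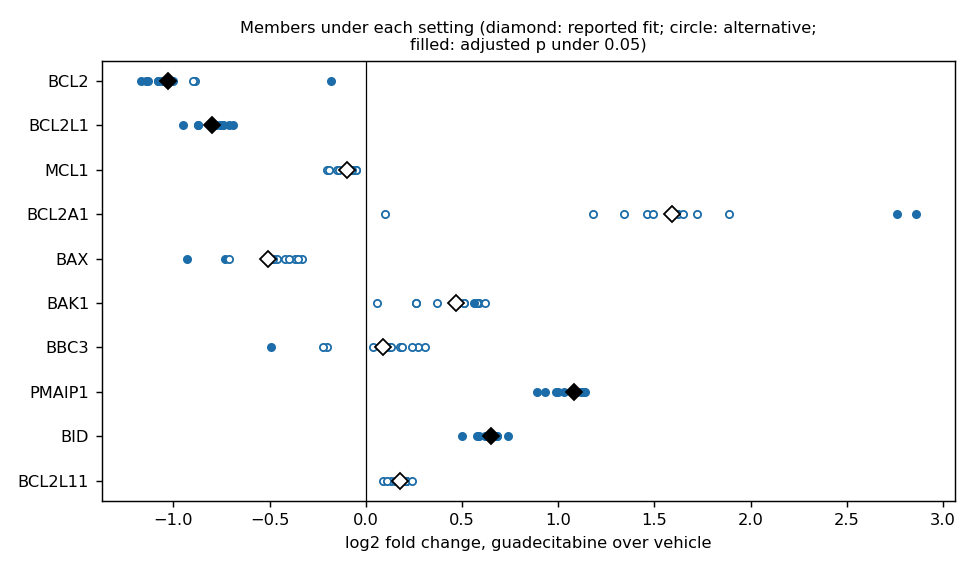
Log2 fold change (x axis) of each member in the reported fit (diamonds) and under each alternative (circles); filled symbols passed an adjusted p of 0.05. BCL2L1, PMAIP1 and BID are filled throughout, MCL1 and BCL2L11 nowhere, and the circles of BCL2 at -0.18 and of BCL2A1 at 0.10 are the deposited log2 values, a transformation that shrinks low counts.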

How the data were processed

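RNA of 3 vehicle and 3 guadecitabine libraries of MDA-MB-231 cells was prepared with the TruSeq RNA kit and sequenced on an Illumina HiSeq. Reads were aligned to hg19 by the authors, using STAR 2.3.1z, and they deposited raw counts of exon reads, made with iRNA-seq, for 1 RefSeq transcript per symbol. Counting was not stated to use strand, and reads matching several places were handled in a way not given in the sources used here. The authors also deposited log2 values of DESeq2's regularized log transformation, and their own comparison (mean, fold change, error, statistic, p-values), which was not used.

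The members and lists were chosen with earlier results of these data known. Groups and replicate numbers came from the labels. The test was that of edgeR 4.0.16 in R 4.3.3, on the counts (filterByExpr with a minimum count of 10, TMM, glmQLFTest, Benjamini-Hochberg over 13322 genes, threshold 0.05), after the fit had been tested on simulated counts. The study's methods give no settings for its test. Standard errors came from the quasi-likelihood F statistic. Normalized counts were scaled to the mean total of 17911210. Alternatives were DESeq2 1.42.0, its size factors, library totals only, other filters, limma 3.58.1 on the deposited log2 values, the replicate number as a block and each library left out. Offsets for GC content (93.7% of tested genes had a value) and the joint omission of vehicle 3 and guadecitabine 2 were added after the data had been seen. All members were named, and from each other list up to 5 called genes with the smallest adjusted p. Some genes were left out of the lists and are not reported here. Gene models came from GENCODE release 44 lifted to GRCh37. Copies of transcripts were sought with BLAST 2.17.0 at 95% identity over 50 bases or more.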

Additional observations from a re-analysis of the deposited data

How the results depend on the processing

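Under 15 alternatives BCL2L1, PMAIP1 and BID passed every time and MCL1 and BCL2L11 never, and no member called in the reported fit changed direction. When 1 library at a time was left out, log2 fold changes ranged from -1.14 to -0.89 for BCL2, from 1.18 to 2.76 for BCL2A1, from -0.73 to -0.33 for BAX, from 0.26 to 0.62 for BAK1 and from -0.22 to 0.31 for BBC3, the number of members called lower from 1 to 3, and the number of genes from 1706 to 3002 higher and from 1629 to 2575 lower. Without vehicle 3 and guadecitabine 2 the log2 fold changes were 2.86 for BCL2A1, -0.93 for BAX and, reversed, -0.49 for BBC3, and 4 members were lower. That fit kept guadecitabine 1, in which GC-rich transcripts deviated by a median of -0.27 (log2). With offsets for GC content BAK1 passed at 0.56. The cause of these shifts was not tested. BCL2A1 gave no value with at least 10 counts in every library. BCL2A1, with 3 to 34 counts a library, had a standard error of 0.70, and of 0.453 without vehicle 3. In the lists, genes higher among the turnover and binding partners went from 2 to 1 with the block, DESeq2's size factors, no filter or the deposited log2 values, and inhibitor of apoptosis genes went from 2 to 1 higher with no filter and from 2 to 1 lower with 10 counts in every library. Without vehicle 3 and guadecitabine 2, lower genes went from 2 to 4 among the other BCL2 family genes and from 1 to 3 among the transcription factors (2 with the GC offsets), and 1 mitochondrial or caspase gene was lower, as with the GC offsets.

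With the replicate block in the model, 2424 genes were higher and 2230 lower, and the same 4 members passed, while DIABLO, RELA and DYNLL1 did not (adjusted p = 0.0619, 0.0524 and 0.0884 by edgeR). With no filter DIABLO, RELA, DYNLL1 and BIRC2 did not pass either (adjusted p = 0.0581, 0.0523, 0.0646 and 0.0689 by edgeR). Same-numbered libraries deviated together by correlations of -0.0499, 0.0492 and -0.0366 only, and not every library correlated best with its own number. The labels give a shared number only. These correlations cannot decide whether same-numbered libraries were paired, because differences between libraries by GC content can also enter them.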

Other observations

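Among the other genes of the BCL2 family, 3 had too few counts to be tested, and their raw counts are given for the record. HRK, a BH3-only gene of neurons, had 0, 0 and 8 counts in vehicle 1, 2 and 3 and 2, 1 and 0 in guadecitabine 1, 2 and 3. BCL2L14 had 0, 1 and 24 counts in the vehicle libraries and 0, 0 and 1 in the guadecitabine libraries, so that nearly all its counts lay in vehicle 3. BCL2L10 had 0, 0 and 3 counts in vehicle and 5, 1 and 5 after guadecitabine. A count of 0 in a library allows up to 3 counts, for counting error only. Of the tested genes outside the members that did not pass, BMF, a BH3-only gene, was at -0.62 on the log2 scale (adjusted p = 0.0762 by edgeR). BCL2L15 was at 1.39 (adjusted p = 0.10 by edgeR), from 9, 6 and 27 raw counts in the vehicle libraries to 56, 13 and 23 in the guadecitabine libraries. They were named after their values were seen.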
